A study of Mus musculus with 3 samples.

Results

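The genes described here encode tubulins, neurofilaments and the proteins that bind microtubules or regulate their growth in neurons. They were the 58 probes, of 55680 on the array, whose gene name in the scanner files was on a list of 42 names. Of these names 35 were matched and stood for 35 genes, of 22328 genes on the array, and 7 were not. Map1a, Map1b, Map2 and Map6 appeared under their older names (Mtap1a and so on), and Map4 and Map7 had no probe under the listed names. All 35 genes were detected on all 3 arrays, as were 56 of the 58 probes. A filter on detection therefore removed no gene from the list.

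The samples were primary cerebral cells of C57BL6/J mice, taken from embryos at day 18 of gestation and cultured in neurobasal medium with B27, which favours neurons over dividing glia. At day 10 in vitro they received 1 mM valproate with 0.1% DMSO, 100 µM lamotrigine with 0.1% DMSO, or 0.1% DMSO alone, for 24 h, so all cultures held the solvent. Valproate is used against epilepsy and inhibits class I histone deacetylases. Lamotrigine, another drug against epilepsy, acts on sodium channels. The labels state that the lamotrigine array belonged to work on antiepileptic drugs outside the histone deacetylase study. There was 1 array per treatment, all on 1 slide, so differences have no replicate check and no p-value is given. The labels do not say how many embryos or dishes went into each RNA sample.

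Microtubules are hollow polymers of alpha- and beta-tubulin pairs, and each tubulin is encoded by a family of genes that code for closely related isotypes. Tubb3 is the beta-tubulin most restricted to neurons, whereas Tubb6 and Tuba1c are made in many cell types. Neurofilaments are intermediate filaments that fill mature axons and are built from the light (Nefl), medium (Nefm) and heavy (Nefh) chains with alpha-internexin (Ina) or peripherin (Prph). Microtubule-associated proteins (MAPs) stabilise and space microtubules, Map2 chiefly in dendrites and tau (Mapt) chiefly in axons.

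Each probe was a DNA oligonucleotide of 60 bases. The first 30 bases of the probes for the genes that stood farthest apart are shown, because each value below is the brightness of 1 such sequence (mm9 positions of the whole probe, read 5′ to 3′). In the 2 Tuba1c probes capitals mark bases that the other Tuba1c probe also holds.
Tubb3, chr8:125945850-125945909, plus strand: ggttgtgtttatattcggggggaggggtat
Map2, chr1:66488783-66488842, plus strand: taatacttatgtttgtgtttttacacctag
Nefh, chr11:4838758-4838817, minus strand: tccactgaagtccactttcaattgcttcca
Nefm, chr14:68738193-68738252, minus strand: ggaggcgatggtgctaccaaatacatcacc
Tuba8, chr6:121176046-121176105, plus strand: agaagtggggactgattcgtttgaagaaga
Prph, chr15:98889042-98889101, plus strand: acagagtcccagaaggaacagcacagtgac
Tuba1c, chr15:98868477-98868536, plus strand: ctttgtctttgTGTGTGCTCTAACTGTCCT
Tuba1c, other probe, chr15:98868488-98868547, plus strand: TGTGTGCTCTAACTGTCCTAAACTGTCAAT
The 2 Tuba1c probes shared an unbroken run of 42 bases and are nearly 1 measurement. The same holds for the 2 probes of Stmn4 (44 bases) and, in part, of Tubb2b (29 bases). Between probes of different genes of the list the longest shared run was 11 bases, and 0 pairs shared 15 or more. Matches of a probe to transcripts of other tubulin genes were not tested, since no transcript sequences were used here.

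Each array was scaled so that the 75th percentile of its probes equals 100. Values are given as this scaled signal, and differences as log2 differences of scaled signal. Scaled signals of different probes are not comparable with each other. Before scaling, the 75th percentile was 478 with valproate, 372 with DMSO and 388 with lamotrigine, and no spot was saturated (0 on each array). Technical spread was taken from those of 399 probes printed at least 10 times that were detected on all 3 arrays. Their median SD over spots was 0.06 log2, which gives 0.09 for a difference between 2 arrays. This technical SD for valproate against DMSO was 0.23 at scaled signals under 25 and 0.06 over 1600. It is the spread among repeat spots within an array, so it leaves out differences between arrays in labelling, hybridisation and scanning.

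Valproate was set against DMSO, the solvent alone, in RNA of the bulk culture. A small group of the genes was higher with valproate: the alpha-tubulins Tuba8 and Tuba1c, the intermediate filament genes Prph and Nefm and, just under the threshold, the beta-tubulin Tubb6. The other large differences were downward: Tubb3, Nefh, Dcx, Map1b, Map2 and Dpysl2. At a threshold of 1.5-fold, 4 of 35 genes were higher and 6 were lower. The background for all 14346 genes detected on both arrays was 6.25% higher and 5.95% lower at this threshold. At 2-fold, 3 genes were higher and 0 were lower, against 2.09% and 1.42% of all genes.

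**Figure D1:**
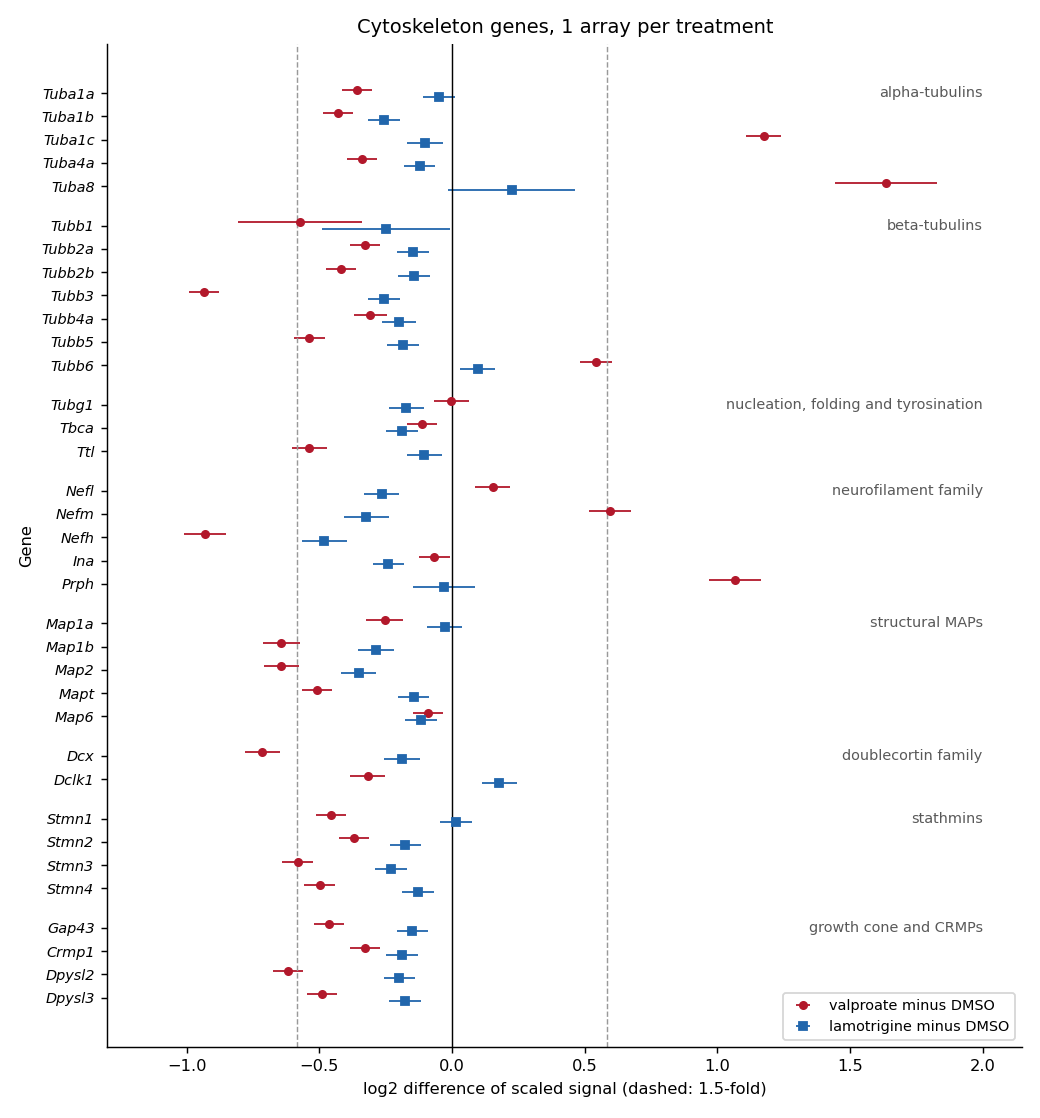
Log2 difference in scaled signal (horizontal axis) of the 35 genes, grouped by role, for valproate minus DMSO (circles) and lamotrigine minus DMSO (squares), 1 array each; bars are 1 technical SD of the difference and dashed lines mark 1.5-fold. Tuba8, Tuba1c, Prph and Nefm lie right of the dashed line with valproate, and no gene passes it with lamotrigine.

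The size of the shift of the whole group depended on how arrays were scaled. Of the 35 genes 29 were below 0 with valproate, with a median of -0.37, but 60.7% of all genes were also below 0, with a median of -0.08. Differences also shifted with brightness. The median over all genes was -0.02 at mean scaled signals under 100 and -0.23 over 6400 (438 genes). The 13 genes of the list in that brightest class lay between -0.58 and -0.33, with a median of -0.46. When the running median of all genes at the same brightness was subtracted, an alternative chosen after the data were seen, 25 of the 35 genes were below 0 and the median was -0.17. By that measure 49.8% of all genes were below 0, and 5 genes of the list were at least 1.5-fold higher and 3 lower, against 6.98% and 4.73% of all genes. Scaling on the spike-in controls added 0.35 to each difference. It left 19 of 35 genes below 0, against 16.8% of all genes, with a median of -0.02 against 0.27 for all genes. Of the alternatives run, this was the only one that moved the median of all genes by more than 0.1.

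**Figure D2:**
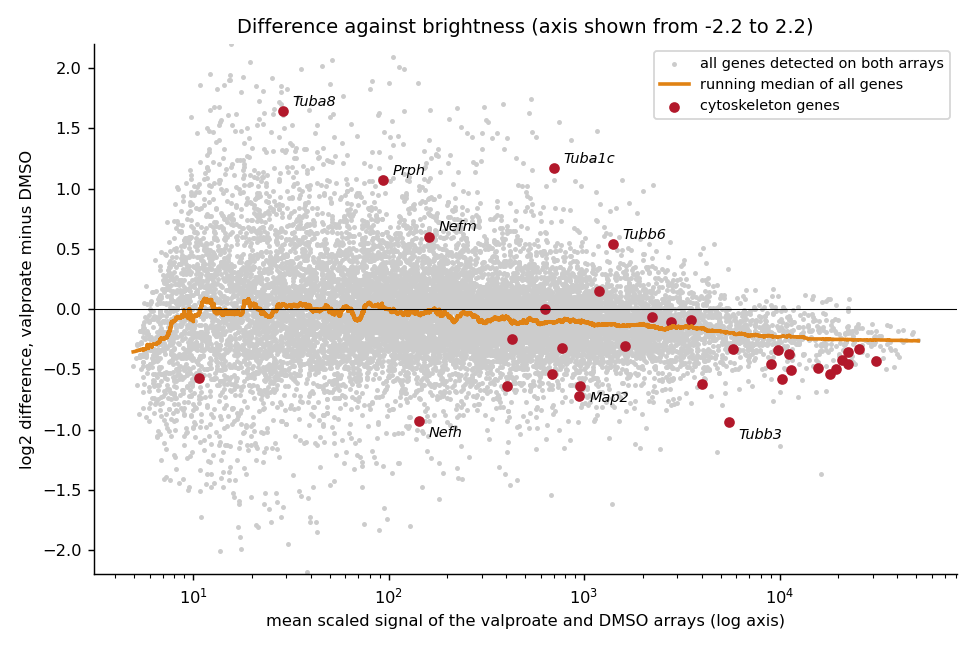
Log2 difference of valproate minus DMSO (vertical axis) against the mean scaled signal of both arrays (horizontal log axis) for 14346 genes (grey), their running median (line) and the 35 cytoskeleton genes (red); the vertical axis leaves out the most extreme grey points. The running median declines toward bright probes, and most red points on the right lie a little under it, while Tubb3, Nefh, Tuba8, Tuba1c and Prph lie far from it.

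Among the alpha-tubulins, Tuba8 and Tuba1c stood apart from the rest. Tuba8 encodes a divergent isotype. It had a scaled signal of 51.0 with valproate, 16.4 with DMSO and 19.2 with lamotrigine. The valproate array was high and the others were alike, a 3.11-fold difference from DMSO (log2 1.64, technical SD 0.19). After normexp background correction, which pulls in dim probes, the Tuba8 difference was 0.89. Tuba1c encodes an isotype of widespread expression. Its scaled signal was 1056 with valproate, 468 with DMSO and 436 with lamotrigine, a 2.26-fold difference from DMSO (log2 1.17, technical SD 0.07), and its overlapping probe gave 1.23.

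The main neuronal alpha-tubulin Tuba1a, with mutations known to disturb cortical layering, had 19879 with valproate, 25480 with DMSO and 24630 with lamotrigine. Its log2 difference of -0.36 became -0.01 with spike-in scaling. Tuba1b (-0.43) and Tuba4a (-0.34) were similar, and with spike-in scaling they were at -0.08 and 0.01. At the same brightness as all other genes, these 3 genes were at -0.11, -0.18 and -0.11. Tuba1c and Tuba8 were above 1.5-fold, and the other 3 under it, in every alternative run.

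Among the beta-tubulins, Tubb3 was the lowest and Tubb6 the only one of 7 above 0 (Tubb2a and Tubb4a joined it with spike-in scaling). Tubb3 had a scaled signal of 3996 with valproate, 7649 with DMSO and 6399 with lamotrigine. The valproate array was lowest and lamotrigine lay between, nearer to DMSO. Tubb3 was 1.91-fold lower with valproate than with DMSO (log2 -0.94, technical SD 0.06). It stayed past 1.5-fold under each of 10 alternatives, from -0.94 to -0.59, the value nearest 0 being that of spike-in scaling. Tubb6, an isotype found in many tissues, had 1704 with valproate, 1170 with DMSO and 1251 with lamotrigine. Its difference of 0.54 was under the threshold, but passed it with quantile normalization (0.66), spike-in scaling (0.89), normexp correction (0.59), the authors' deposited table (0.66) and level-matched centring (0.67).

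The other beta-tubulins lay between these. Tubb5, a major isotype of the developing brain, was at -0.54, Tubb2b at -0.42, Tubb2a at -0.33 and Tubb4a at -0.31. Of these 4, Tubb2a (0.02) and Tubb4a (0.04) were above 0 with spike-in scaling. Tubb1, an isotype of platelets and their precursors, was dim at 8.81 with valproate, 13.1 with DMSO and 11.0 with lamotrigine. Its difference of -0.57 had a technical SD of 0.23.

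Of the 3 genes that act on tubulin itself, Tubg1 and Tbca were near 0 and Ttl was lower. Tubg1, the gamma-tubulin that nucleates microtubules, had 626 with valproate and 628 with DMSO. Tbca, a cofactor of beta-tubulin folding, was at -0.11 on 1 probe and 0.05 on the other. Ttl, the ligase that restores the terminal tyrosine of alpha-tubulin, was at -0.54, with 566 for valproate and 822 for DMSO, and at -0.19 with spike-in scaling.

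The neurofilament family held differences in both directions. Nefm was printed 10 times on each array. It had a scaled signal of 198 ± 7.84 with valproate (SD, n = 10 spots), 131 ± 3.74 with DMSO (SD, n = 9 spots, 1 left out as an outlier) and 105 ± 3.20 with lamotrigine (SD, n = 10 spots). The spots ran from 183 to 208 with valproate, from 125 to 136 with DMSO and from 97.4 to 110 with lamotrigine. All spots of an array share 1 RNA sample and 1 labelling reaction per array, so they measure the precision of the array and not the spread between cultures. The log2 difference of valproate from DMSO was 0.60, or 1.51-fold, just past the threshold, and it was 0.58 with normexp correction.

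Nefh went the other way. It had a scaled signal of 104 with valproate, 199 with DMSO and 142 with lamotrigine. The DMSO array was high, valproate low, and lamotrigine between them. The log2 difference of valproate from DMSO was -0.93 (1.91-fold, technical SD 0.08), and the other probe, 6.89 against 13.3, gave -0.95. With spike-in scaling Nefh was at -0.58, just under 1.5-fold. Nefm and Nefh were compared because earlier results of these data had them apart with valproate, so a gap between them was given beforehand. Their valproate differences lay 1.53 log2 apart, and a single scaling factor per array cannot alter that gap. With normexp correction the gap was 1.41. Between valproate and lamotrigine, which leaves out the DMSO array but uses the same valproate array, Nefm and Nefh lay 1.37 apart. The lamotrigine differences of Nefm and Nefh lay 0.16 apart, both below 0.

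Nefl had a scaled signal of 1260 with valproate, 1133 with DMSO and 942 with lamotrigine, so its difference of 0.15 from DMSO was small while its difference from lamotrigine was 0.42. Ina was near 0, at -0.07 on 1 probe and 0.06 on the other. Prph, a filament protein best known from peripheral and spinal neurons, had 136 with valproate, 65.1 with DMSO and 63.7 with lamotrigine. The valproate array alone was high, with a log2 difference from DMSO of 1.07 (technical SD 0.10). Prph stayed past 1.5-fold under each of 10 alternatives, from 0.89 to 1.42.

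**Figure D3:**
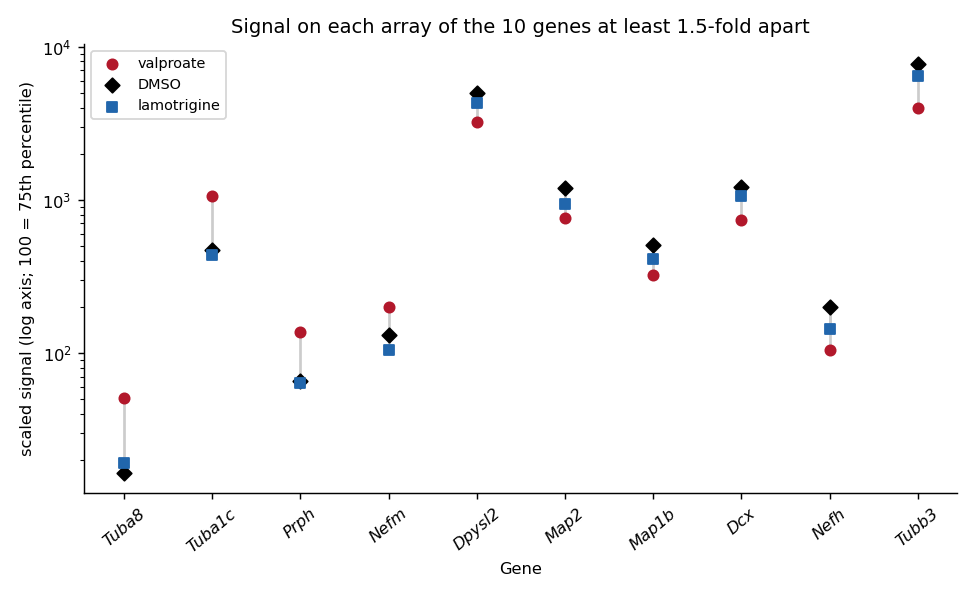
Scaled signal (vertical log axis, 100 = the 75th percentile of an array) on the valproate, DMSO and lamotrigine arrays for the 10 genes at least 1.5-fold apart between valproate and DMSO; each symbol is 1 array, and heights are to be compared within a gene only. Valproate is the highest symbol for Tuba8, Tuba1c, Prph and Nefm and the lowest for the other 6, and lamotrigine is under DMSO for Nefm and for all 6 of the lower genes.

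The structural MAPs were at or below the median of all genes. Map2, the dendritic MAP, had a scaled signal of 765 with valproate, 1195 with DMSO and 936 with lamotrigine. Its log2 difference from DMSO was -0.64 (1.56-fold lower, technical SD 0.07), and its 3 probes spread little, from -0.68 to -0.63. Map2 was under 1.5-fold with quantile normalization (-0.55), the authors' deposited table, normexp correction, level-matched centring (-0.54) and spike-in scaling (-0.29).

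Map1b, a MAP of growing axons, was at -0.64 on its brighter probe (322 with valproate, 504 with DMSO, 413 with lamotrigine) and at -0.26 on the other. It was under 1.5-fold in 6 of 10 alternatives, at -0.56 with quantile normalization and -0.29 with spike-in scaling. The other 4 were the changed detection filters, kept outlier spots and median centring. They left the Map1b value as it was or, for median centring, moved it by 0.005. Every alternative that moved Map1b more than this took it under 1.5-fold. Map1a, its counterpart in mature neurons, was at -0.25 and -0.12. Mapt was at -0.51, with 9559, 13598 and 12294 for valproate, DMSO and lamotrigine, and its 3 probes ran from -0.51 to -0.39. Map6, which protects microtubules from cold, differed most between probes. The brighter one was at -0.09 and the other, annotated to a different RefSeq transcript, at -0.75 (1492 with valproate, 2502 with DMSO). Map4 and Map7, listed on the array as Mtap4 and Mtap7 and so outside the rule, were at -0.10 and, on 2 probes, at 0.57 and 0.23.

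Of the doublecortin genes, Dcx was lower with valproate under every alternative run, whereas Dclk1 was at -0.32 and turned to 0.03 with spike-in scaling. Dcx, which binds microtubules in migrating young neurons, had 734 with valproate, 1207 with DMSO and 1058 with lamotrigine. Its difference was -0.72 on the brightest probe, -0.84 and -0.86 on the dimmer ones, and -0.37 on the brightest with spike-in scaling. Dclk1, a kinase with doublecortin domains, was at -0.32 and -0.43 on 2 probes annotated to 1 RefSeq transcript. The probe annotated to another transcript was at -0.73, with 478 for valproate, 792 for DMSO and 578 for lamotrigine. On the lamotrigine array these Dclk1 probes also parted, at 0.18, 0.13 and -0.45 from DMSO.

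**Figure D4:**
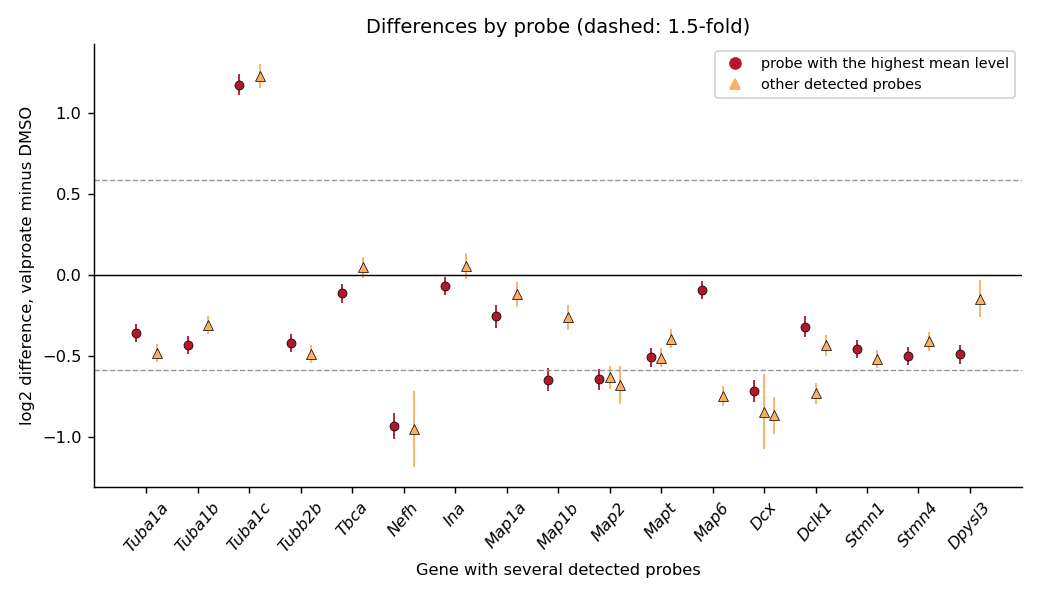
Log2 difference of valproate minus DMSO (vertical axis) for each detected probe of the 17 genes with several; circles are the probe with the highest mean level, triangles the other probes, bars 1 technical SD, and dashed lines 1.5-fold. All detected probes of Tuba1c, Nefh, Map2 and Dcx lie past 1.5-fold, those of Map1b, Map6 and Dclk1 lie on both sides of it, and Tbca and Ina change sign around 0.

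Of 17 genes with several detected probes, 15 had the same sign on all of them and 2 had opposite signs. In 4 genes all probes were past 1.5-fold, and in 3 the probes fell on both sides of it. For the other 18 genes, Tubb3, Tuba8, Prph and Nefm among them, the value rests on 1 probe.

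The stathmins, which bind free tubulin dimers, and the growth cone proteins formed the most even group. Stmn1, Stmn2, Stmn3 and Stmn4 were at -0.46, -0.37, -0.58 and -0.50 with valproate. Gap43, a growth cone protein of extending axons, was at -0.46 (7674 with valproate, 10579 with DMSO, 9536 with lamotrigine). The collapsin response mediators, which couple guidance signals to tubulin, were at -0.33 (Crmp1), -0.62 (Dpysl2) and -0.49 (Dpysl3). Of these 8 genes only Dpysl2 passed 1.5-fold, and it was at -0.45 with level-matched centring, against -0.36 for Stmn3 and -0.25 to -0.13 for the other 6. With spike-in scaling 7 of the 8 stayed below 0 and Crmp1 was at 0.02.

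Lamotrigine was set against the same DMSO array as a drug of another mechanism. None of the 35 genes was 1.5-fold apart (0 of 35), against 1.88% of all 14340 genes detected on both arrays. With no replicates there is no test behind this count. The median was -0.18, against -0.05 for all genes, and 31 of the 35 genes were below 0, against 60.2% of all genes. These values are not matched for brightness. At mean scaled signals over 6400, 14 genes of the list had a median of -0.15, against -0.15 for all genes. With level-matched centring the median of the 35 genes was -0.04, against 0 for all genes. With spike-in scaling 10 of 35 were below 0, against 17.0% of all genes, and the median was 0.03. The lowest gene was Nefh at -0.48 on 1 probe and -0.49 on the other. Map2 was at -0.35, -0.09 and -0.46 on its 3 probes, Nefm at -0.32 and Tubb3 at -0.26. Tuba8 was the highest at 0.22, with a technical SD of 0.24. The valproate and lamotrigine differences share the DMSO array, so 1 unusual DMSO value moves both.

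The comparison of the drugs with each other does not use that array. Valproate against lamotrigine left 5 of 35 genes at least 1.5-fold apart, against 12.0% of all 14544 genes. The background was 6.17% higher and 5.84% lower. Tuba8 (1.41), Tuba1c (1.28), Nefm (0.92) and Prph (from 0.94 to 1.25 over the alternatives) were higher and Tubb3 (-0.68, or -0.53 with spike-in scaling) was lower. Nefh was at -0.45 and Map2 at -0.29, both smaller than against DMSO, while Nefm was farther apart than against DMSO (lamotrigine lay under DMSO). Dcx was at -0.53 on its brightest probe and at -1.05 and -0.91 on its dimmer ones. The median of the 35 genes was -0.28, against -0.03 for all genes.

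**Figure D5:**
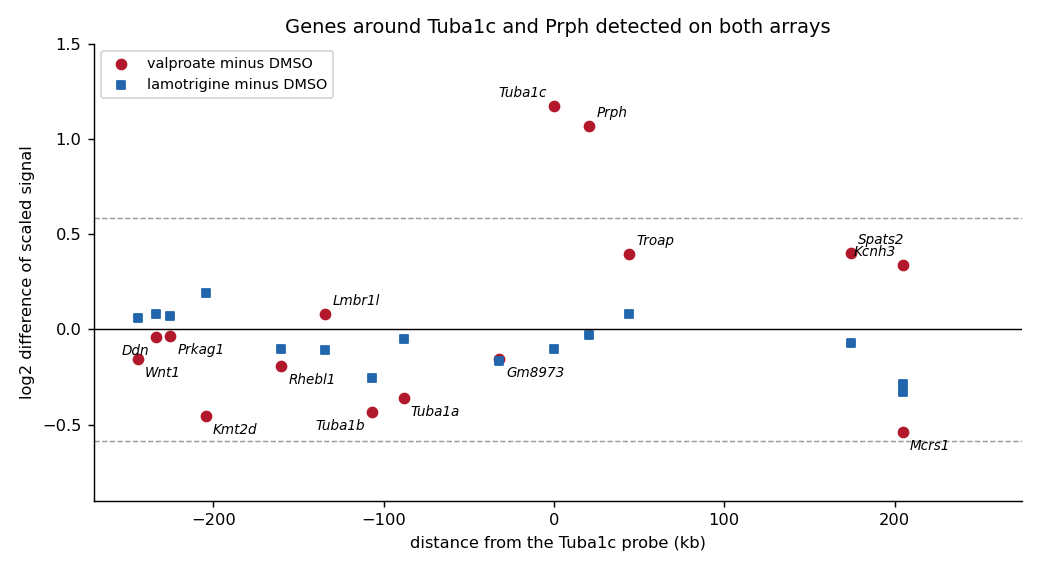
Log2 difference of scaled signal (vertical axis) against the distance from the Tuba1c probe in kb (horizontal axis) for the 15 genes within 250 kb that were detected on the valproate and DMSO arrays; circles are valproate minus DMSO, squares lamotrigine minus DMSO, dashed lines 1.5-fold. Tuba1c and Prph, 20.6 kb apart, are the 2 circles above the upper dashed line, and Tuba1a and Tuba1b lie below 0.

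Some of the genes lie close together in the genome, and the following windows were chosen after the values were seen. Tuba1c and Prph, both higher with valproate, lie on chromosome 15 with their probes 20.6 kb apart, and Tuba1a lies 88.2 kb from Tuba1c on the other side. Of the genes within 250 kb of the Tuba1c probe, 11 outside the list were detected with valproate and with DMSO, and they lay between -0.54 and 0.40. The highest of them were Spats2 (0.40), Troap (0.40) and Kcnh3 (0.34). Dhh, a hedgehog ligand in the same window, was detected with valproate (25.8) and not well above background with DMSO (2.99), a difference of at least 4.87-fold. On chromosome 14 the Nefl and Nefm probes lie 32.6 kb apart. A230070E04Rik, a gene of unstated function 11.1 kb from the Nefm probe, had 78.6 with valproate, 47.0 with DMSO and 41.2 with lamotrigine, which is 0.74 higher with valproate and -0.19 with lamotrigine. Nefl, on the other side, was at 0.15.

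Promoter sequences from RefSeq (GRCm38.p6, 250 bases before to 50 after the start) were matched for 21 of the 35 genes, in 24 windows. The 250 bases before the start are shown for 3 genes that were higher (Tuba1c, Prph, Tuba8) and 2 that were lower (Tubb3, Map2), each on the plus strand. Capitals mark matches on either strand to the GC box GGGCGG, the CCAAT box CCAAT and the TATA box TATAAA.
Tuba1c, chr15:99029641-99029890: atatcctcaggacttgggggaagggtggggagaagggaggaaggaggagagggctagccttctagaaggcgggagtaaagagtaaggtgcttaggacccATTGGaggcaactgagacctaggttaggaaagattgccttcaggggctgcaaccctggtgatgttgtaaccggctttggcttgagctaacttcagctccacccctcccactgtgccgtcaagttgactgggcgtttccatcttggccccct
Prph, chr15:99054924-99055173: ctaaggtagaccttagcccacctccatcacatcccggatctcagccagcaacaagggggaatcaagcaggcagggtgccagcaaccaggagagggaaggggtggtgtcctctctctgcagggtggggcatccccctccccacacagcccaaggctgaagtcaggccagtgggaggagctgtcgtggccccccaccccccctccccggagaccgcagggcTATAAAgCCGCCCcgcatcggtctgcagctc
Tuba8, chr6:121210484-121210733: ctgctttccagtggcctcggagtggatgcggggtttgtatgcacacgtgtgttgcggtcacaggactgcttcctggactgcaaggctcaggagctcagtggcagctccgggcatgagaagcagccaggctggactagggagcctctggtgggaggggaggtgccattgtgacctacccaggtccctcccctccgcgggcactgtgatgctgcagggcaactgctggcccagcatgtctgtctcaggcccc
Tubb3, chr8:123411303-123411552: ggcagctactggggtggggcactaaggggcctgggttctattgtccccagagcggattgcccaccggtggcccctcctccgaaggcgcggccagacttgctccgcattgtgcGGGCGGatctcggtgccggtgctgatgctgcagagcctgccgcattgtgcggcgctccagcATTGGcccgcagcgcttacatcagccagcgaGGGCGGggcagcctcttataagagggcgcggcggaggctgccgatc
Map2, chr1:66175079-66175328: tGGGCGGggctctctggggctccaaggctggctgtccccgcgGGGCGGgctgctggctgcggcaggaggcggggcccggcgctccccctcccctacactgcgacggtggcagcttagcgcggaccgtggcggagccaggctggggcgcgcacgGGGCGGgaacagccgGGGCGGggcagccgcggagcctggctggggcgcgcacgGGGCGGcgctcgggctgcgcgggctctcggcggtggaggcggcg

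The GC box was found 5 times in the 300-base window of Map2, 2 times in that of Tubb3, 1 time in that of Prph and 0 times in those of Tuba1c and Tuba8. CG dinucleotides numbered 37, 26, 10, 7 and 12 in the same order. Among the other genes at least 1.5-fold lower, Map1b had 2 GC boxes and 23 CG dinucleotides. Dcx had 0 GC boxes and 3 CG dinucleotides in each of its windows. Over all 24 windows of the list the median number of CG dinucleotides was 20, against 7 over all 32851 promoters. Of the 24 windows 15 held a GC box, against 35.7% of all promoters. With the share of all promoters in parentheses, a CCAAT box was in 10 (37.4%), a TATA box in 5 (13.6%), the E-box CANNTG in 17 (72.3%) and the cAMP response element TGACGTCA in 1, that of Tubb2a (1.79%). A match is a description of letters. The genes shown were picked by their response, and whether any match went with the response was not tested.

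Other genes of the microtubule and filament system were read from lists chosen with earlier results of these data known. With valproate against DMSO 6.25% of all genes were at least 1.5-fold higher and 5.95% lower. These shares are the background for the counts of each list below. Among other tubulins and MAPs, 1 of 30 detected genes was at least 1.5-fold higher with valproate and 3 were lower (median -0.14, or 0.21 with spike-in scaling). Map7d3, a MAP that recruits kinesin, was the higher one, with a scaled signal of 31.8 with valproate, 11.3 with DMSO and 11.2 with lamotrigine. Mid2 was at -0.82, Tppp3 at -0.74 and Map6d1 at -0.60. Of 18 genes for folding cofactors and chaperonin subunits, 0 were 1.5-fold apart, and they lay between -0.26 and 0.17 (median -0.13, or 0.22 with spike-in scaling). Cct6a was the lowest, and Cct8, Cct5 and Cct3 were at -0.19, -0.19 and -0.18.

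Of 23 tubulin-modifying enzymes 1 was higher and 2 were lower, with a median of 0.06, or 0.15 with quantile normalization and 0.41 with spike-in scaling. Agbl4, which removes glutamate residues from tubulin tails, was 1.20 higher (20.6 with valproate, 8.97 with DMSO, 11.3 with lamotrigine). The ligases Ttll9 and Ttll3 were at -0.83 and -0.79, and Ttll10 at -0.49. Of 34 genes for plus-end binding, severing and minus-end proteins 2 were higher and 2 lower (median -0.13, or 0.22 with spike-in scaling), near the 6.25% and 5.95% of all genes. Fignl1 (0.73) and Nedd1 (0.71), the latter a recruiter of gamma-tubulin to spindles, were higher, and Katnal2 (-0.66) and Camsap2 (-0.60) lower.

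Of 26 genes for kinases and phosphatase subunits acting on tau, MAPs and neurofilaments, 0 were at least 1.5-fold higher and 1 lower (median -0.20, or 0.15 with spike-in scaling). That 1 was Dyrk1a at -0.59. Camk2b was at -0.50, Gsk3b at -0.49 and Cdk5r1, the activator of Cdk5, at -0.47. Among 13 other intermediate filament genes 1 was higher and 1 lower. Sync was 0.62 higher with valproate and 0.70 higher with lamotrigine, both against the same DMSO value. It was dim, at 19.2 with valproate, 12.5 with DMSO and 20.3 with lamotrigine. At such signals the technical SD was 0.23 for valproate and 0.24 for lamotrigine against DMSO. Bfsp2 was at -0.98, Vim at -0.42 and Nes at 0.31. All 28 detected genes of axon growth and of the actin and spectrin cytoskeleton were between -0.67 and -0.01 with valproate, 2 of them at least 1.5-fold lower. Of all genes 60.7% were below 0. The median of the 28 was -0.28, or -0.14 with level-matched centring and 0.07 with spike-in scaling. By level-matched centring some of the 28 were above 0, Cotl1 (0.09) among them. With lamotrigine, 0 genes of these lists were 1.5-fold apart except Sync, against 1.88% of all genes. Marcksl1 was at -0.67 with valproate, Nrcam at -0.59, Tmod2 at -0.55 and Ank2 at -0.52.

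Cell type markers moved beside these genes, and their part in the results was not tested. The background for the marker counts is again 6.25% of all genes higher and 5.95% lower with valproate at 1.5-fold. In a bulk culture, fewer cells of a type and less RNA per cell cannot be told apart. All 14 neuron markers were detected on every array and 0 were 1.5-fold apart with valproate. Their median was -0.28 (-0.14 with level-matched centring, 0.07 with spike-in scaling). Their summed scaled signal was 21938 with valproate, 25262 with DMSO and 22180 with lamotrigine. Signals of different probes are not comparable, so such sums, here and below, mostly follow the brightest markers. The lowest was Gad2 at -0.47, and the highest was Eno2 at 0.30. Tbr1 was at -0.42 and Rbfox3 at -0.35.

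Of 10 astrocyte markers 4 passed 1.5-fold downward on the valproate array (median -0.52, or -0.17 with spike-in scaling), against 5.95% of all genes. The summed signals of the 10 were 23138 with valproate, 44797 with DMSO and 43514 with lamotrigine. Aldoc alone gave 10073, 25995 and 25605 of these sums. Aqp4 was at -1.62, Aldoc at -1.37, Slc1a2 at -0.80 and Glul at -0.76. Gfap, the filament protein of astrocytes, was the only 1 of the 10 above 0, at 0.06, or 0.22 with quantile normalization and 0.41 with spike-in scaling. Of 9 oligodendrocyte lineage markers detected on both arrays 3 were lower and 1 higher (median -0.38, or -0.03 with spike-in scaling; summed signals of 4151, 4630 and 4124 in the same order of arrays). They ran from Gpr17 at -3.75, through Sox10 at -0.75 and Pdgfra at -0.60, to Mbp at 0.60. Mag, a myelin protein, was detected with DMSO and not well above background with valproate (4.20), at least 2.55-fold lower. Of 9 markers of dividing progenitors 2 were at least 1.5-fold higher and 0 lower (median 0.35; 7562, 6096 and 6486). Eomes, the marker of intermediate progenitors, was not well above background on any array. Mcm2 was at 0.78, Top2a at 0.66, Cdk1 at 0.53 and Mki67 at 0.52, all genes of the cell cycle. The progenitor transcription factors Sox2 and Pax6 were at -0.12 and -0.09, or 0.23 and 0.26 with spike-in scaling.

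The 5 fibroblast and meningeal markers were below 0 (median -0.39, and -0.04 with spike-in scaling; 6153, 8149 and 7253), with 1 at least 1.5-fold lower, Col3a1 at -0.97. Col1a1 was at -0.57, Col1a2 at -0.39 and Dcn at -0.20. Of 8 microglia and macrophage markers 5 were detected on both arrays, 0 of them 1.5-fold apart (median -0.01, or 0.34 with spike-in scaling; 1595, 1439 and 1572). In the summed signals Itgam alone gave 1438, 1264 and 1398. Itgam was at 0.19, Aif1 at 0.08, Csf1r at -0.08 and Cd68 at -0.36, and the defining markers Cx3cr1, Tyrobp and C1qa were not well above background on any array. Of 7 endothelial and mural markers 4 were detected on both, also with 0 apart (median -0.23, or 0.12 with spike-in scaling; 3523, 4028 and 4208). Cldn5, the defining tight junction marker, was not well above background on any array. Kdr was at 0.20, Pdgfrb at -0.16, Acta2 at -0.30 and Cdh5 at -0.45. Acta2 alone gave 2650, 3270 and 3265 of the summed signals. Flt1, a receptor of vascular growth factors, had 27.3 with valproate and was not well above background with DMSO (3.93), a difference of at least 5.15-fold.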

How the data were processed

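Total RNA of 3 cultures was labelled with Cy3 and hybridised to 1 slide, per the labels. The deposited scanner files hold the intensity of each spot, read with Feature Extraction version 10.7.1.1, background-subtracted and detrended within the array, with probes placed on mm9, per the file headers. The authors also deposited a table of quantile-normalized intensity; the software behind it is not given in the sources used here, and its presence calls were not used. Flags per spot are a further kind of deposited value.

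Log2 processed signal was scaled to the 75th percentile of non-control spots. Outlier spots were left out, and spots of 1 probe averaged. A probe was detected if over 50% of its spots were well above background. Probes were joined to RefSeq genes by accession (27180), symbol (3576) or older symbol (564). The probe with the highest mean level stood for a gene. With 1 array per treatment no test was possible, and genes past 1.5-fold or 2-fold were counted. Every gene of the list was described, and up to 4 genes farthest from 0 of each other list were named. Gfap, Sox2, Pax6, Flt1, Mag, Cotl1, Eomes, Cx3cr1, Tyrobp, C1qa and Cldn5 were added after their values were seen. The genes and lists were chosen with earlier results of these data known. Values were recomputed from the authors' deposited table, after quantile normalization, after normexp (offset 50), with spike-in scaling (6 of 10 probes, signal over 100) or median centring, with outlier spots, without a detection filter or with detection required on all 3 arrays, with a gene's detected probes averaged, and at 2-fold. Level-matched centring (running median of 301 genes) and the windows around Tuba1c and Nefm were chosen after the data were seen. The steps were tested on simulated data. R 4.3.3, limma 3.58.1 and Python 3.11.15 were used.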

Additional observations from a re-analysis of the deposited data

How the results depend on the processing

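Of 1050 single-gene values recomputed under an alternative, 692 moved by less than the technical SD, 358 moved by more, and 0 genes past 1.5-fold changed sign. Part of the 692 was fixed in advance. All 35 genes were detected on all 3 arrays, so requiring this, or dropping the detection filter, could move no value. Median centring shifted the valproate differences from DMSO by only 0.005. The deposited table is itself quantile-normalized, so it nearly repeats quantile normalization. The count of 6 lower genes was 3 with quantile normalization, the authors' deposited table, normexp correction and level-matched centring, 1 with spike-in scaling and 0 at 2-fold. The 5 genes apart between the drugs were 3 at 2-fold. The median of the 35 genes with valproate against DMSO (-0.37) was -0.19 with quantile normalization and the deposited table, -0.17 with level-matched centring and -0.019 with spike-in scaling. With lamotrigine against DMSO (-0.18) it was -0.039 with quantile normalization and -0.039 with the deposited table, -0.043 with level-matched centring and 0.026 with spike-in scaling, and between the drugs (-0.28) it was -0.18, -0.18, -0.17 and -0.13 in that order of settings. The 4 higher genes numbered 3 to 5 under all alternatives run, and the 0 genes apart with lamotrigine stayed 0. No paired analysis was possible because each treatment had 1 array. The number of arrays limits precision, and dim probes such as Tubb1 and Tuba8 have the widest technical spread.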
